A study of Mus musculus with 8 samples.

Results

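The unfolded protein response was followed through 10 genes in the liver RNA of mice with LPS-induced endotoxemia, with and without LGK974. The genes were chosen by name as known parts of this response, with earlier results of these data known. These are *Ddit3*, *Atf4*, *Xbp1*, *Creb3l3*, *Trib3*, *Sdf2l1*, *Pdia4*, *Calr*, *Herpud1* and *Edem1*. They are 10 of the 23282 rows of the count table, and edgeR's filter on low counts kept each of them among the 12701 rows tested. The mice were of the C57BL/6 strain, 4 weeks old and stated to be male. The control group received saline, the endotoxemic group 25 mg/kg LPS, the endotoxin of gram-negative bacteria, and the LGK974 group 60 mg/kg LGK974 together with 25 mg/kg LPS. LGK974 blocks Porcupine, the enzyme that attaches the lipid which Wnt proteins need for secretion. The LPS and LGK974 doses of the LGK974 group come from the study's text, as its labels give neither. Livers were collected 6 h after LPS in most experiments, and LGK974 was mostly given 2 h before LPS. Whole liver tissue was used, so that the RNA of hepatocytes and of all other liver cells is mixed. The labels do not say whether each library came from a separate mouse, and the p-values measure only the spread between these libraries.

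The endoplasmic reticulum (ER) folds the proteins that a cell secretes, and the liver secretes most plasma proteins. When unfolded proteins gather there, the sensors PERK, IRE1 and ATF6 respond. PERK phosphorylates the initiation factor eIF2α, which lowers translation in general and favours that of ATF4, a transcription factor of amino acid and stress genes. IRE1 splices the mRNA of XBP1, and cleaved ATF6 and spliced XBP1 raise ER chaperones and the machinery that takes misfolded proteins out for degradation (ER-associated degradation, ERAD). CREBH, the product of *Creb3l3*, is a liver transcription factor held in the ER membrane that is cleaved like ATF6 and drives acute-phase, lipid and glucose genes.

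There were 8 libraries, but endotoxemic library 3 repeated library 1 and library 4 repeated library 2, with identical counts on all rows. Each pair was therefore used as 1 sample, leaving 2 distinct libraries in each of the 3 groups. Total counts lay between 9142116 and 15222439, and 3 counts, used as the smallest signal that can be shown, correspond to 0.197 to 0.328 CPM (counts scaled to the library total), a floor for counting error only. The libraries did not match their stated sex throughout. *Xist*, transcribed from the inactive X chromosome, had 1171 to 3115 counts in the control and endotoxemic libraries and 3 and 7 counts in the LGK974 libraries. The Y-linked *Ddx3y* had 0 counts in the former libraries, and 1755 and 1392 counts in the LGK974 libraries. This difference and LGK974 treatment cannot be told apart in any comparison with the LGK974 group, whereas the control and endotoxemic libraries shared the same pattern. In 579 rows, the symbol was that of a gene over 2 Mb from the genes of the surrounding rows. None of the 10 genes was among them (0 of 10, also at a distance of 10 Mb or 0.5 Mb), and the rows beside each of them carried genes of the same chromosome. Among the pathway genes described here, *Nfe2l2*, *Nupr1*, *Cebpb*, *Eif2ak1* and *Crp* stood on such rows and were left out of the counts.

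Markers of other liver cells moved between the groups. All 8 hepatocyte markers on ordered rows were detected, with *Alb*, *Ttr* and *Serpina1c* the most abundant. Their summed level was 84000 to 115500 CPM in the control group, 35510 to 52560 CPM in the endotoxemic group and 39620 to 41160 CPM in the LGK974 group, and 7 of 8 were lower in the endotoxemic than in the control group. Of 6 neutrophil markers, 6 were higher in the endotoxemic group, and their sum was 17.15 to 23.72 CPM in the control, 3481 to 4903 CPM in the endotoxemic and 2841 to 2994 CPM in the LGK974 group. *Lcn2*, the most abundant of them, is also made by hepatocytes in the acute phase. In the same comparison 1 of 8 tested Kupffer cell markers was higher and 4 were lower, as were 1 and 5 of 9 for sinusoidal endothelial cells and 1 and 4 of 9 for stellate cells. For monocytes 3 of 4 were higher and 1 was lower, and for cholangiocytes 1 of 6 was higher and 1 lower. The summed levels did not follow these counts. A sum is weighted toward its most abundant marker, which was *Marco* for Kupffer cells, *Lyve1* for sinusoidal endothelial cells and *Dcn* for stellate cells. The Kupffer cell sum was 231.9 to 249.3 CPM in the control and 230.8 to 234.3 CPM in the endotoxemic group (137.1 to 179.8 CPM with LGK974), whereas the endothelial sum went from 356.5 to 380.6 CPM up to 464.3 to 470.7 CPM (468.1 to 593.6 CPM with LGK974) and the stellate sum from 452.9 to 482 CPM up to 591.6 to 624.1 CPM (485.7 to 608.6 CPM with LGK974). The monocyte sums, in which *F10* was the most abundant marker, overlapped between these groups, although 3 of 4 markers were higher. The cholangiocyte sum was 33.86 to 33.96 CPM in the control and 86.63 to 95.1 CPM in the endotoxemic group. Plasma cells are known for high *Xbp1*, and the sum of their 6 other markers on ordered rows, 1 of them at 0 in every library, was 3.416 to 3.531 CPM in the control, 13.87 to 15.2 CPM in the endotoxemic and 5.967 to 13.58 CPM in the LGK974 group. The most abundant of them, *Derl3*, is itself an ERAD gene of the lists below, with 173 counts in LGK974 library 2. Without it the sums were 1.38 to 2.173, 9.079 to 9.936 and 1.715 to 2.726 CPM. The lymphocyte markers summed to between 1.029 and 8.057 CPM. In such mixed tissue, fewer cells of a type and less RNA per cell cannot be told apart. The part of these shifts in the results below was not tested.

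The question of the first comparison was how LPS alone changed the response. Of the 10 genes, 4 were higher in the endotoxemic than in the control group, namely the stress transcription factors *Ddit3*, *Atf4* and *Xbp1* and the chaperone cofactor *Sdf2l1*, by 2.26-fold to 3.8-fold. *Herpud1*, a membrane component of the ERAD complex, and *Creb3l3* were lower, by 3.72-fold and 1.98-fold. *Trib3*, *Calr*, *Pdia4* and *Edem1* did not pass the test. Changes of this kind were common in this comparison, as 20.4% of all rows tested were higher and 23% were lower at an edgeR adjusted p below 0.05. The 4 and 2 of 10 therefore have to be read against these shares, and the median log2 fold change of all rows was 0.01.

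**Figure D1:**
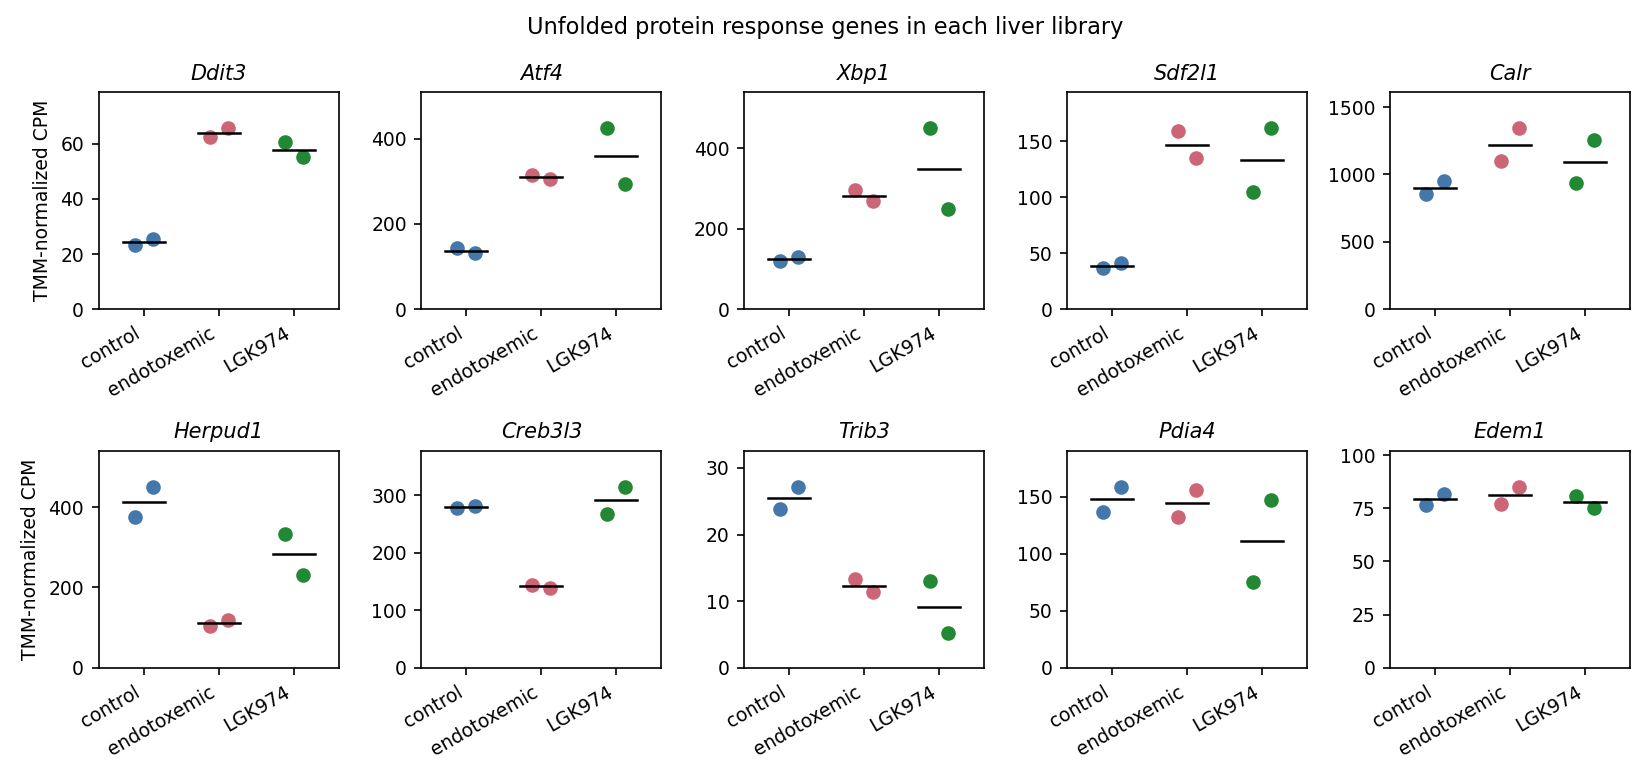
TMM-normalized CPM (vertical axes, from 0, with a scale of their own for each gene) of the 10 genes in the control, endotoxemic and LGK974 groups. Each point is 1 distinct library and each bar the mean of 2. *Ddit3*, *Atf4*, *Xbp1* and *Sdf2l1* lie higher in both groups given LPS than in the control group, whereas *Herpud1* and *Creb3l3* are lowest in the endotoxemic group.

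*Ddit3* encodes CHOP, the transcription factor that links lasting ER stress to cell death. It lies on chromosome 10 of mm10 (GRCm38) from 127290774 to 127296288. It had normalized levels of 23.2 and 25.49 CPM in the control libraries and 62.41 and 65.66 CPM in the endotoxemic libraries. The groups did not overlap, and within each of them the libraries were close together. Its log2 fold change was 1.39 (SE 0.19, with an edgeR adjusted p of 0.000439). GENCODE holds a second protein-coding gene named *Ddit3* that overlaps 2925 bases of it on the same strand. The count table has 1 row of that name, and reads of both could not be told apart. On the opposite strand the annotated gene shares 68 bases with *Mars* and 15 bases with Gm4189. Whether the counting used strand is not given in the sources used here, so reads of those overlaps could belong to either gene.

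*Atf4*, the effector of the PERK branch (chromosome 15, 80255184 to 80257541), had 143 and 131.7 CPM in the control group and 313.8 and 306.2 CPM in the endotoxemic group. Each endotoxemic library was thus above each control library, and the log2 fold change was 1.17 (SE 0.22, with an edgeR adjusted p of 0.0024). These are levels of mRNA, and translation, the step at which ATF4 is mainly controlled, was not measured.

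For *Xbp1* (chromosome 11, 5520659 to 5525893), the control libraries had 120.2 and 128.9 CPM and the endotoxemic libraries 295.3 and 267.9 CPM. The gene was higher in both endotoxemic libraries, and its log2 fold change reached 1.18 (SE 0.27, with an edgeR adjusted p of 0.00732). Without control library 1 the log2 fold change was 1.12 and the edgeR adjusted p = 0.0681. Reads from the 3′ end do not cover the intron that IRE1 removes, so the spliced form could not be counted.

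*Creb3l3* (chromosome 10, 81084324 to 81098874) differed in direction from these factors. It had 278.9 and 282.3 CPM in the control group and 144.1 and 138.9 CPM in the endotoxemic group, with both endotoxemic libraries lower. It fell by 0.99 on the log2 scale (SE 0.19, with an edgeR adjusted p of 0.00249). Its fall went along with that of the hepatocyte markers given above, and their part in it was not tested.

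*Trib3*, a pseudokinase induced by ATF4 and CHOP (chromosome 2, 152337422 to 152344032), had 23.85 and 27.19 CPM in the control libraries and 13.31 and 11.3 CPM in the endotoxemic libraries. Both endotoxemic libraries were lower, unlike those of *Atf4* and *Ddit3*, but the log2 fold change of −1.05 (SE 0.39) did not pass, with an edgeR adjusted p of 0.0522. It passed under 6 of 15 alternatives, with a range of the adjusted p from 0.00146 to 0.219. With the replicate number as a block it was −1.09, with an edgeR adjusted p of 0.0426, and without LGK974 library 1 or 2, which took no part in the contrast but in the estimate of spread, the edgeR adjusted p was 0.00157 or 0.00146.

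Of the ER folding genes, *Sdf2l1* passed the test and *Calr* and *Pdia4* did not. *Sdf2l1* (chromosome 16, 17130138 to 17132383), a partner of the ER chaperone BiP and its cofactors, rose from 36.57 and 40.85 CPM in the control group to 159.5 and 134.7 CPM in the endotoxemic group. This was the largest rise among the 10 genes in this comparison, with a log2 fold change of 1.93 (SE 0.25, with an edgeR adjusted p of 0.000286). *Calr*, the lectin chaperone calreticulin (chromosome 8, 84841850 to 84846934), had 855.1 and 947.7 CPM in the control and 1097 and 1343 CPM in the endotoxemic libraries. The libraries did not overlap, yet the log2 fold change of 0.44 (95% confidence interval −0.05 to 0.93) did not pass (edgeR adjusted p = 0.133). It passed under 3 of 15 alternatives, among them those without LGK974 library 1 (edgeR adjusted p = 0.0209) or 2 (0.022). *Pdia4*, a protein disulfide isomerase (chromosome 6, 47796141 to 47813430), had 136.5 and 158.8 CPM in the control and 132.6 and 155.6 CPM in the endotoxemic libraries. Here the groups overlapped, and the interval of the log2 fold change of −0.04 ran from −0.7 to 0.63 (edgeR adjusted p = 0.933).

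Of the ERAD genes, *Herpud1* was lower in the endotoxemic group and *Edem1* did not pass the test. *Herpud1* (chromosome 8, 94386438 to 94395377) had 374.8 and 450.9 CPM in the control libraries and 103.9 and 118 CPM in the endotoxemic libraries. It was the largest fall among the 10 genes in this comparison, with both endotoxemic libraries far below the control libraries and a value on the log2 scale of −1.9 (SE 0.23, with an edgeR adjusted p of 0.000233). Over the 15 alternatives this value stayed between −2.03 and −1.75 and passed in each of them. The antisense gene Gm15890 overlaps 535 bases of the annotated *Herpud1*, and its reads could not be told apart without strand. *Edem1*, a lectin that delivers misfolded glycoproteins to ERAD (chromosome 6, 108828641 to 108859356), had 76.48 and 81.83 CPM in the control and 76.93 and 85.17 CPM in the endotoxemic libraries. These groups overlapped, and its log2 fold change was 0.03, with an interval from −0.38 to 0.45 (edgeR adjusted p = 0.898).

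**Figure D2:**
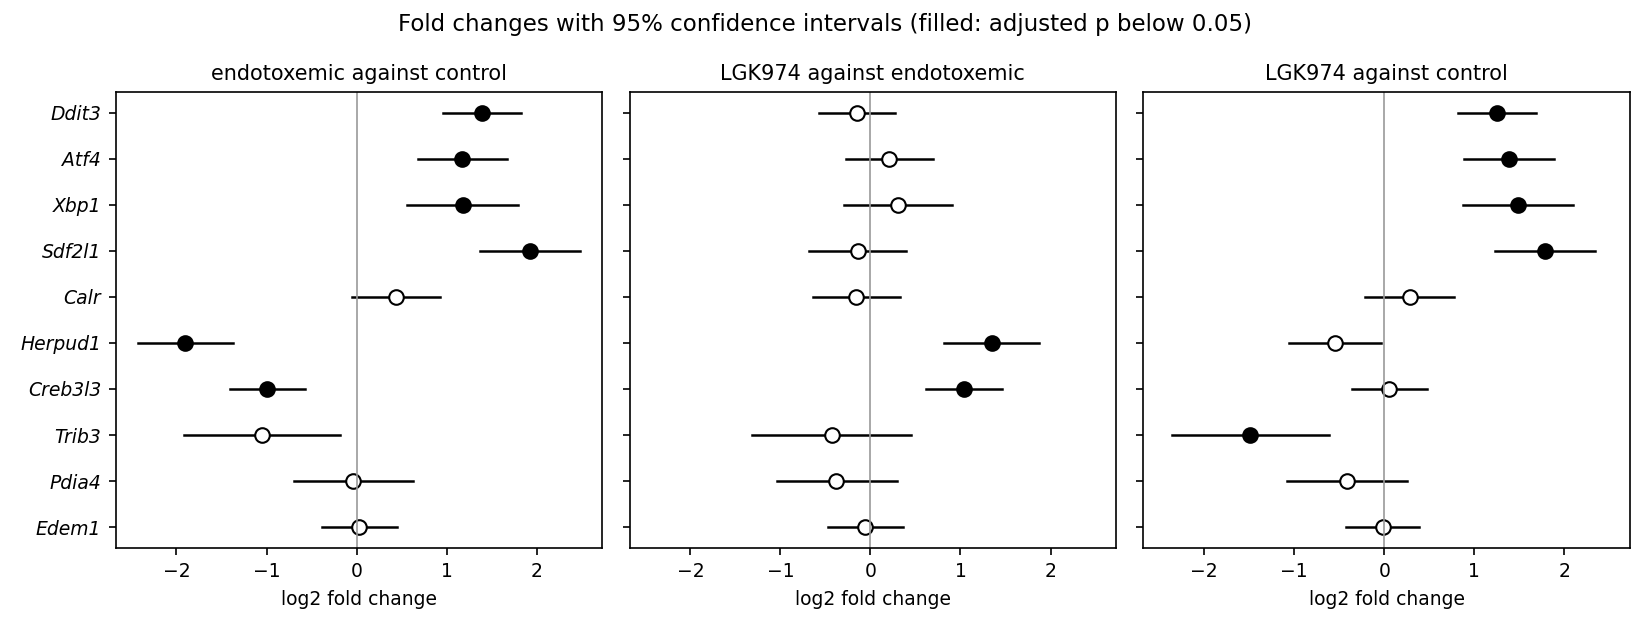
Log2 fold changes (horizontal axes) of the 10 genes with their 95% confidence intervals from edgeR in the 3 comparisons, on the same scale. Filled points have an adjusted p below 0.05. *Herpud1* is at −1.9 in the endotoxemic group against control and at 1.35 in the LGK974 group against the endotoxemic group, and *Creb3l3* at −0.99 and 1.04.

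*Herpud1* is a known target of the unfolded protein response, and its promoter is shown because its fall was the largest. The sequences are those of RefSeq on GRCm38.p6, whose table held all 10 genes, and only bases before the start site were used, read toward the gene and with −1 as the last base before the start. The motifs searched on both strands of 250 bases were the ER stress elements ERSE (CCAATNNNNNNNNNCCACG) and ERSE-II (ATTGG and CCACG with any base between), the core TGACGTGG bound by XBP1 and ATF6, the cyclic AMP response element TGACGTCA and the ATF4 element TGATGNAA. Capitals mark the matches. For *Herpud1* the 250 bases at chr8:94386179-94386428 (plus strand) are given whole. For *Calr* (within chr8:84846932-84847181, minus strand) and for *Hspa5*, the BiP gene and the textbook bearer of this element (within chr2:34771840-34772089, plus strand), the stretch around the match is given.
Herpud1: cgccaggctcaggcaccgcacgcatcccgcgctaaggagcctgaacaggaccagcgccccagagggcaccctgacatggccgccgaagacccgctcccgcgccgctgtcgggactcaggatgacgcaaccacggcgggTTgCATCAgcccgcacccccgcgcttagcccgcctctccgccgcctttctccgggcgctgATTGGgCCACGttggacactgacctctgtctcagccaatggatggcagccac
Calr: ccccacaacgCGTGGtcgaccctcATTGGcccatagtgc
Hspa5: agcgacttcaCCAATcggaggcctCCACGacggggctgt

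*Herpud1* carried ERSE-II from −52 to −42 and, on the minus strand, the ATF4 element from −112 to −105. Its window also ended in the letters of ERSE up to the last base. That base lies past the start site and was not searched, so an ERSE there was neither counted nor excluded. *Calr* carried ERSE on the minus strand from −162 to −144, and *Hspa5* carried it from −65 to −47. *Hsp90b1*, the gene of the ER chaperone GRP94, was searched as a further known bearer and carried ERSE from −212 to −194 and, on the minus strand, from −107 to −89. ERSE-II was present in 0.0304% and ERSE in 0.113% of 32851 promoter stretches of this length. The core TGACGTGG was present in 0.563%, the cyclic AMP response element in 1.55% and the ATF4 element in 3.45% of them. The other 8 of the 10 genes had no match to these letters in their windows, which does not bear on other sites or spellings. In the endotoxemic group against control, the 4 genes named with a match had log2 fold changes of −1.9 (*Herpud1*), 0.44 (*Calr*, not passed), 1.39 (*Hspa5*) and 1.03 (*Hsp90b1*, with 959.1 and 916.4 CPM in the control and 2152 and 1687 CPM in the endotoxemic libraries, edgeR adjusted p = 0.00338).

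The wider pathway was described from lists ordered by role, against the shares of all rows given above. Some lists include genes of the 10 described above, and their counts are then also given without them. Among the sensors and transcription factors, 8 of 16 tested genes were higher and 1 (*Creb3l3*) lower in the endotoxemic than in the control group, with a median log2 fold change of 0.77. Without *Atf4*, *Xbp1* and *Creb3l3*, 6 of 13 were higher and the other 7 did not pass, with a median of 0.63. *Hspa5*, whose BiP protein keeps the sensors inactive, had 1483 and 1121 CPM in the control and 3879 and 2965 CPM in the endotoxemic libraries. It was higher in both endotoxemic libraries, and its log2 fold change reached 1.39 (SE 0.28, with an edgeR adjusted p of 0.00383). The mRNAs of the sensors themselves did not pass. *Eif2ak3*, the PERK gene, had a log2 fold change of 0.53 (SE 0.34, with an edgeR adjusted p of 0.24), *Ern1*, the IRE1 gene, with 3 to 17 counts per library, one of 0.37 (SE 0.84, 0.749), and *Atf6* one of −0.66 (SE 0.28, 0.0905). The largest rises were those of *Creb3l1* and *Creb3l2*, relatives of *Creb3l3* that are likewise cleaved from the ER membrane, and of *Nck1*, an adaptor that binds PERK. *Creb3l1* went from 1.207 and 1.503 CPM to 14.4 and 11.3 CPM (log2 fold change 3.22, edgeR adjusted p = 0.000107). *Creb3l2* and *Nck1* had log2 fold changes of 2.28 and 2.46 (edgeR adjusted p = 0.00796 and 5.83e-05).

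Targets of the PERK and ATF4 branch were higher in 17 and lower in 3 of 28 tested genes, with a median log2 fold change of 1.21 (16 and 3 of 26, with the same median, without *Ddit3* and *Trib3*). *Mthfd2*, a mitochondrial enzyme of folate metabolism, had 7 and 8 counts in control and 267 and 268 counts in the endotoxemic libraries (log2 fold change 5.62, SE 0.36, edgeR adjusted p = 5.81e-06). *Asns*, asparagine synthetase, had 0 and 8 counts without LPS and 119 and 135 counts in the endotoxemic libraries, a ratio of 45.6 of the summed counts per total (95% exact interval 22.8 to 107 for counting error only). *Slc7a11*, the cystine transporter, had 1 and 0 counts in the control and 29 and 43 counts in the endotoxemic libraries, with a ratio of 103 and an interval from 18 to 4140. These 3 genes were at or near the floor without LPS. The genes that fell were *Vldlr*, a lipoprotein receptor, *Cth*, which makes cysteine from cystathionine, and *Shmt2*, a mitochondrial enzyme of serine and glycine metabolism. *Cth* went from 388.6 and 449.3 CPM to 29.24 and 23.24 CPM (log2 fold change −4, SE 0.35, edgeR adjusted p = 3.39e-05), and *Vldlr* and *Shmt2* fell by 4.27 and 1.79 on the log2 scale (edgeR adjusted p = 6.94e-05 and 0.000119). In a list of the eIF2α kinases and phosphatases, eIF2α itself and *Dnajc3*, an ER co-chaperone known to inhibit PERK, 4 of 7 tested genes were higher and the other 3 did not pass (median 0.84). *Dnajc3*, at 0.84 (edgeR adjusted p = 0.0117), also counts among the chaperones below. The others were *Eif2ak2*, the kinase of double-stranded RNA, at 2.43, *Eif2s1*, the gene of eIF2α, at 1.15, and *Ppp1r15a*, the stress-induced phosphatase subunit, at 1.04 (edgeR adjusted p = 0.000322, 0.00167 and 0.00613).

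Chaperones and folding enzymes were higher in 16 and lower in 2 of 36 genes, with a median log2 fold change of 0.41, and in 15 and 2 of 33 without *Sdf2l1*, *Calr* and *Pdia4* (median 0.4). *Creld2*, an ER stress-induced disulfide isomerase-like protein, had 19.12 and 18.69 CPM in the control and 174.4 and 156.1 CPM in the endotoxemic libraries, a log2 fold change of 3.13 (SE 0.23, with an edgeR adjusted p of 1.15e-05). *Manf*, a secreted ER stress protein, had 100.5 and 117.8 CPM against 644.9 and 631.6 CPM (2.55, SE 0.32, edgeR adjusted p = 0.000246). Both were higher in both endotoxemic libraries. *Cnpy2* and *Sil1*, the latter a nucleotide exchange factor of BiP, fell by 0.9 and 0.77 on the log2 scale (edgeR adjusted p = 0.0132 and 0.0238). In ERAD, 4 of 28 genes were higher and 5 lower, with a median of 0.03, and without *Herpud1* and *Edem1* 4 of 26 were higher and 4 lower (median 0.09). *Syvn1*, the ubiquitin ligase HRD1 to which the HERPUD1 protein binds, had 46.78 and 46.53 CPM in the control and 222.6 and 168.7 CPM in the endotoxemic libraries. It rose by a log2 fold change of 2.07 (SE 0.28, with an edgeR adjusted p of 0.000364), whereas *Herpud1* fell. *Selk* and *Ube2g2* were higher, at 1.05 and 0.83 (edgeR adjusted p = 0.00361 and 0.0299), and the ligase *Rnf5* fell by 1.7 on the log2 scale (0.00316).

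In translocation into and export from the ER, 21 of 49 genes were higher and 2 lower, with a median log2 fold change of 0.53. *Sec61g*, a subunit of the translocon, *Srp19*, of the signal recognition particle, and *Sec22b*, a vesicle fusion protein, were highest, at 2.06, 1.96 and 1.79 (edgeR adjusted p = 8.93e-05, 0.000146 and 0.00132). *Sar1b*, a GTPase of COPII vesicles, and the cargo receptor *Lman1* fell by 1.81 and 0.81 on the log2 scale (edgeR adjusted p = 0.000351 and 0.00611). Known liver targets of CREBH were mostly lower, 6 of 10, while 2 were higher, and their median was −0.96. *Pck1* and *G6pc*, enzymes of glucose production, had 2590 and 3250 CPM and 623.4 and 567.6 CPM in the control libraries, against 101.7 and 116.2 CPM and 1.855 and 2.132 CPM in the endotoxemic libraries, with changes of −4.74 and −8.21 on the log2 scale (edgeR adjusted p = 1.11e-05 and 2.78e-05). *Apcs*, the acute-phase protein serum amyloid P, rose from 99.13 and 97.64 CPM to 2246 and 2228 CPM (log2 fold change 4.51, SE 0.21, edgeR adjusted p = 1.09e-06), and *Cidec*, a lipid droplet protein, had a log2 fold change of 3.44 (SE 0.74, 0.00508). The list held acute-phase, lipid and glucose genes, and *Creb3l3* itself was lower. Without control library 1, the higher genes numbered 5 of the sensors and factors, 11 of the PERK and ATF4 targets, 2 of the eIF2α list, 12 chaperones, 1 ERAD gene and 11 translocation and export genes. Of the genes named from the lists, *Creb3l2*, *Ppp1r15a* and *Selk* did not pass without control library 1 (edgeR adjusted p = 0.0579, 0.0615 and 0.0548). Leaving out a library also ended the calls of *Dnajc3* (either control library or endotoxemic library 2), *Cnpy2* (either control library or endotoxemic library 1), *Lman1* (control library 1 or either endotoxemic library), and *Sil1* and *Ube2g2* (any control or endotoxemic library), with edgeR adjusted p up to 0.0998, 0.146, 0.0649, 0.199 and 0.205.

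**Figure D3:**
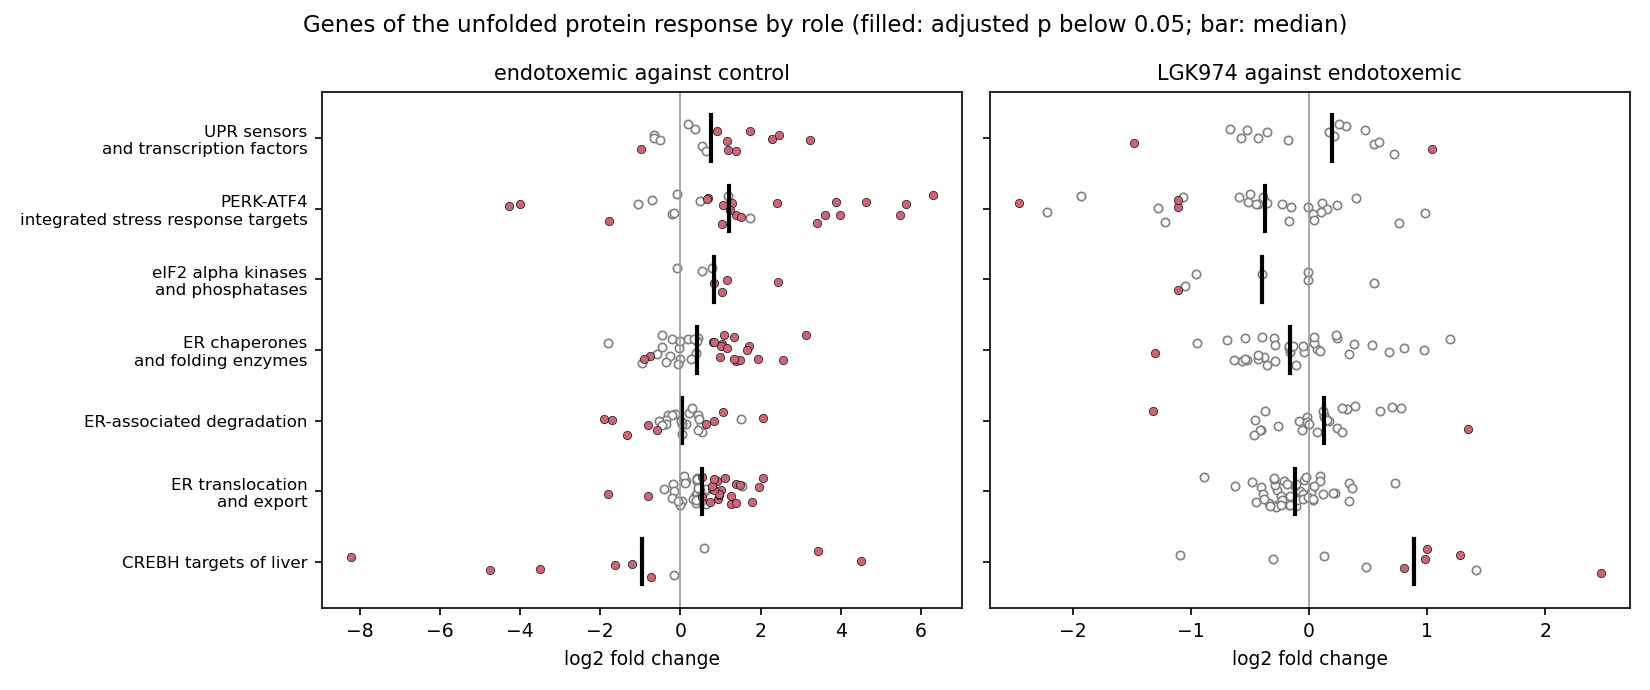
Log2 fold changes (horizontal axes, scales differ between panels) of the tested genes of each list, for the endotoxemic group against control and the LGK974 group against the endotoxemic group. Each point is a gene, filled points have an edgeR adjusted p below 0.05, and bars are list medians. The medians of the PERK and ATF4 targets are 1.21 and −0.37, and those of the CREBH targets −0.96 and 0.89 (0.27 without LGK974 library 1).

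The second comparison asked how LGK974 changed the response in mice given LPS. Of the 10 genes, 2 passed, and both were higher with LGK974 than with LPS alone, *Herpud1* by 2.54-fold and *Creb3l3* by 2.06-fold. They were also those that were lower in the endotoxemic than in the control group, but the comparisons share the endotoxemic libraries and are not independent. In this comparison 2.8% of all rows tested were higher and 2.82% lower. Both LGK974 libraries carried the Y-linked counts that the endotoxemic libraries lacked, so that sex-linked differences and LGK974 cannot be told apart here.

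*Herpud1* had 333.3 and 231 CPM in the LGK974 libraries, which was above the endotoxemic libraries (103.9 and 118 CPM) and below the control libraries. The log2 fold change against the endotoxemic group was 1.35 (SE 0.23, with an edgeR adjusted p of 0.0154). Without endotoxemic library 1 it was 1.23 with an edgeR adjusted p of 0.164, and without library 2 it was 1.44 with an edgeR adjusted p of 0.132, each time with 1 endotoxemic library left. *Creb3l3* had 267.4 and 315.2 CPM, more than the endotoxemic libraries and around the control libraries. Its log2 fold change was 1.04 (SE 0.19, with an edgeR adjusted p of 0.0173). The call was lost when either control library (edgeR adjusted p = 0.0584 and 0.0586) or either endotoxemic library (0.163 and 0.185) was left out, while the log2 fold change stayed between 0.92 and 1.16 over the 15 alternatives.

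The 4 genes that rose with LPS had overlapping or nearby levels in the LGK974 group. *Ddit3* had 60.54 and 55.15 CPM, slightly under the endotoxemic libraries, and its log2 fold change was −0.15 (95% confidence interval −0.57 to 0.27, edgeR adjusted p = 0.683). For *Atf4* the LGK974 libraries had 424.5 and 294.6 CPM, on either side of the endotoxemic libraries (log2 fold change 0.21, interval −0.27 to 0.7, edgeR adjusted p = 0.596). *Sdf2l1* was spread in the same way, with 105.1 and 161.7 CPM and a log2 fold change of −0.14 (interval −0.68 to 0.39, edgeR adjusted p = 0.764). *Xbp1* had 449.4 and 248.6 CPM, again on either side, and a log2 fold change of 0.31 (interval −0.29 to 0.91, edgeR adjusted p = 0.53). The spread between the LGK974 libraries was wider than between those of the other groups for *Xbp1*, which passed at 0.67 without LGK974 library 2 (edgeR adjusted p = 0.0258) and was −0.18 without library 1. These intervals leave room for changes in either direction and do not show that LGK974 had no effect.

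*Trib3* had 13.06 and 5.211 CPM in the LGK974 libraries, with library 2 below all others, and a log2 fold change of −0.43 (interval −1.32 to 0.45, edgeR adjusted p = 0.55). Without LGK974 library 1 it was −1.24 (edgeR adjusted p = 0.0143), and without library 2 it was 0.09. *Pdia4* had 75.11 and 147.1 CPM, the first of which was the lowest of all libraries (log2 fold change −0.38, interval −1.04 to 0.29, edgeR adjusted p = 0.49). It was −0.94 without LGK974 library 2 (edgeR adjusted p = 0.0107) and 0.03 without library 1. *Calr* had 934.5 and 1255 CPM (log2 fold change −0.16, interval −0.64 to 0.33, edgeR adjusted p = 0.71). *Edem1* had 80.7 and 75.32 CPM (−0.06, interval −0.47 to 0.36, edgeR adjusted p = 0.89). For *Calr* and *Edem1* the LGK974 and endotoxemic libraries overlapped. The spread between LGK974 libraries 1 and 2 had no common direction, as library 1 was higher for *Ddit3*, *Atf4*, *Xbp1*, *Herpud1*, *Trib3* and *Edem1* and lower for *Sdf2l1*, *Pdia4*, *Calr* and *Creb3l3*. Over all rows tested, their rank correlation was 0.9554, beside 0.9828 for the control and 0.9812 for the endotoxemic libraries. The ribosomal RNA row *Rn45s* held 4.8% of the counts of LGK974 library 1 and 9.38% of those of library 2. Its part in the spread was not tested.

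Across the pathway lists few genes passed between the LGK974 and endotoxemic groups. The calls named here were lost when endotoxemic library 1 or 2 was left out, and those of *Atf3*, *Cebpg*, *Ppp1r15a*, *Syvn1* and *Apoa4* also without control library 1 or 2. Among the sensors and transcription factors 1 of 16 genes was higher (*Creb3l3*) and 1 was lower, *Nck1*, which had 68.96 and 83.36 CPM in the endotoxemic and 29.97 and 24.77 CPM in the LGK974 libraries (log2 fold change −1.48, SE 0.23, edgeR adjusted p = 0.0108). Without the genes already described, 1 of 13 was lower and 12 did not pass, and the median log2 fold change was −0.18 instead of 0.19. The median of all 16 was −0.16 without LGK974 library 1. Of the PERK and ATF4 targets 3 of 28 were lower and 25 did not pass, with a median log2 fold change of −0.37 beside 0.031 over all rows. Without LGK974 library 1 or 2, 10 and 6 were lower (medians −0.38 and −0.2), and without any 1 of the control or endotoxemic libraries 0 were. *Atf3*, a stress-induced transcription factor, had 14.73 and 17.59 CPM in the endotoxemic and 4.68 and 1.218 CPM in the LGK974 libraries (−2.46, SE 0.56, edgeR adjusted p = 0.0385). *Cebpg*, a partner of ATF4, had 111 and 95.61 CPM against 39.63 and 55.96 CPM, and *Ppp1r15a* had 26.62 and 27.39 CPM against 11.47 and 13.47 CPM. Each fell by 1.11 on the log2 scale (edgeR adjusted p = 0.0235 and 0.0278). *Atf3*, *Cebpg* and *Ppp1r15a* had all been higher in the endotoxemic than in the control group, with log2 fold changes of 3.99, 1.24 and 1.04, in comparisons that share the endotoxemic libraries. *Ppp1r15a* was also the gene that passed among the 7 of the eIF2α list, whose median was −0.4.

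Of the chaperones and folding enzymes 1 of 36 was lower (median −0.16). Without LGK974 library 2, 7 were lower (median −0.29), and without LGK974 library 1, 4 were lower and 2 higher (median 0). The gene that passed with all libraries was *Creld2*, with 76.85 and 56.78 CPM in the LGK974 libraries and a log2 fold change of −1.31 (SE 0.21, with an edgeR adjusted p of 0.0121). *Hspa5* had 3336 and 2014 CPM, which overlapped the endotoxemic libraries (−0.36, SE 0.28, edgeR adjusted p = 0.488), and *Manf* had 588.9 and 289.4 CPM (−0.54, SE 0.3, edgeR adjusted p = 0.323). In ERAD 1 of 28 genes was higher (*Herpud1*) and 1 was lower (median 0.13), so that 0 of the 26 others were higher. The latter was *Syvn1*, with 98.74 and 58.54 CPM and a log2 fold change of −1.32 (SE 0.27, with an edgeR adjusted p of 0.0263), with the highest edgeR adjusted p over the 15 alternatives at 0.196. Of the 49 translocation and export genes 0 passed by edgeR, 2 had an unadjusted p below 0.05, and 1 passed by DESeq2 (median −0.12). By edgeR 1 was higher without a filter, 1 higher and 3 lower without LGK974 library 1, and 1 higher and 4 lower with the identical endotoxemic libraries counted apart. The CREBH targets were higher in 5 of 10 genes and the other 5 did not pass, with a median of 0.89. The median was 0.27 without LGK974 library 1, 0.77 without endotoxemic library 1 and 0.89 without endotoxemic library 2. The calls of this list were lost when endotoxemic library 1 or 2 was left out. *Hamp*, the gene of the iron hormone hepcidin, lay at the threshold and is named after its values were seen. It had 911.4 and 995.2 CPM in the endotoxemic and 567.2 and 329.4 CPM in the LGK974 libraries (log2 fold change −1.09, SE 0.27, edgeR adjusted p = 0.0503), and it passed as lower in 10 of the 15 alternatives, with adjusted p from 0.000122 to 0.264. *Pck1* had 415.7 and 787.9 CPM in the LGK974 libraries (log2 fold change 2.47, SE 0.31, edgeR adjusted p = 0.00448), and *Apoa4*, an apolipoprotein, had 109.5 and 91.02 CPM after 45.94 and 54.26 CPM in the endotoxemic libraries (1, SE 0.21, 0.0284). In *G6pc*, with 9.058 and 1.692 CPM, 1 LGK974 library was above and the other below both endotoxemic libraries (1.41, SE 0.65, edgeR adjusted p = 0.233). Of the hepatocyte markers 1 of 8 was higher in the LGK974 than in the endotoxemic group. Their part in the values of the CREBH targets was not tested.

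The third comparison set the LGK974 group, which also received LPS, against the control group. Here 5 of the 10 genes passed, 4 of them higher and 1 lower, beside 16.4% higher and 17.7% lower of all rows tested, whose median log2 fold change was 0.018. *Ddit3*, *Atf4*, *Xbp1* and *Sdf2l1* were higher in both LGK974 libraries than in both control libraries, with log2 fold changes of 1.25, 1.39, 1.49 and 1.78 (SE 0.19, 0.22, 0.27 and 0.25). Their edgeR adjusted p-values were 0.0011, 0.00133, 0.00303 and 0.000594, and they passed under all 15 alternatives. *Trib3* was lower, with a log2 fold change of −1.49 (SE 0.39, with an edgeR adjusted p of 0.0164), which did not pass without control library 1 or 2 (edgeR adjusted p = 0.0602 and 0.0891). For *Herpud1* both LGK974 libraries were below both control libraries, but the log2 fold change of −0.55 (95% confidence interval −1.06 to −0.04) did not pass (edgeR adjusted p = 0.0921), except at −0.83 without LGK974 library 1 (edgeR adjusted p = 0.00457) and with the identical endotoxemic libraries counted apart (0.0397). *Creb3l3* overlapped the control group, with a log2 fold change of 0.05 and an interval from −0.36 to 0.47 (edgeR adjusted p = 0.849).

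The remaining genes had intervals on both sides of 0 in this comparison. *Pdia4* was at −0.41 (interval −1.08 to 0.25, edgeR adjusted p = 0.315), and at −0.97 (0.00186) without LGK974 library 2. *Calr* was at 0.28 (−0.21 to 0.77, edgeR adjusted p = 0.35), and at 0.48 (0.0474) without LGK974 library 1. *Edem1* was at −0.02 (−0.43 to 0.39, edgeR adjusted p = 0.944). In the pathway lists, 9 of 16 sensors and transcription factors were higher, as were 11 of 28 PERK and ATF4 targets with 4 lower, 3 of 7 genes of the eIF2α list, 13 of 36 chaperones with 1 lower, 5 of 28 ERAD genes with 4 lower, and 16 of 49 translocation and export genes with 3 lower. Of the CREBH targets 2 of 10 were higher and 4 were lower. Leaving the 10 genes out of the lists, 7 of 13 sensors and factors, 10 of 26 PERK and ATF4 targets (3 lower), 12 of 33 chaperones (1 lower) and 5 of 26 ERAD genes (4 lower) were higher. These counts depended on single libraries. Over the full lists and without control library 1, 3 sensors and factors, 7 PERK and ATF4 targets, 1 gene of the eIF2α list, 6 chaperones, 1 ERAD gene and 9 translocation and export genes were higher, and 1 ERAD gene was lower. Without control library 2 the counts of higher genes were 4, 7, 1, 7, 0 and 8, and 0 ERAD genes were lower. *Hspa5* and *Eif2ak3* were both higher in the LGK974 than in the control group, with log2 fold changes of 1.04 (SE 0.28, with an edgeR adjusted p of 0.0194) and 1.08 (SE 0.34, 0.0339). The call of *Hspa5* was lost without control library 1 or 2 (edgeR adjusted p up to 0.15), and that of *Eif2ak3* passed in 1 of the 6 fits that left out a library (up to 0.159).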

How the data were processed

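Liver RNA (500 ng per library) was sequenced by the authors with a Lexogen QuantSeq kit, which reads transcript 3′ ends, so that a gene's count does not scale with its length. The deposited values are whole-number read counts per gene symbol, without normalization. The submitters' processing notes name mm10, Bowtie2 and edgeR without versions or roles, and the counting program and its use of strand are not given in the sources used here. None of the 10 genes shared a 50-base word of the last 300 bases of its longest transcript with a gene of another symbol.

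The distinct libraries, 2 per group and 6 in all, were fitted in R 4.3.3 with edgeR 4.0.16: filterByExpr by group, TMM, 1 quasi-likelihood model over the 3 groups, and its F test with Benjamini-Hochberg adjustment over all 12701 rows at 0.05 (common biological coefficient of variation 0.239). SEs and 95% intervals follow from the F statistic. CPM were TMM-normalized, except that summed marker CPM are per library total. Scripts were tested on simulated data. Depth was 9142116 to 15222439 counts, and intervals and floors from counts cover counting error only. Row order was compared with RefSeq positions, and coordinates are from GENCODE M21. Alternatives were no filter, at least 10 counts per library, DESeq2 size factors, upper-quartile factors, DESeq2 1.42.0, identical libraries kept apart, the replicate number as a block, leaving out each library, and reassigned or dropped rows out of order.

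The 10 genes and the gene lists were chosen with earlier results of these data known. Named genes besides these 10 are *Hspa5*, *Eif2ak3*, *Ern1* and *Atf6*, and of each list the 3 largest rises and falls past the threshold in the first comparison and up to 3 each way in the second, with the most abundant cell type markers. *Hsp90b1*, *Dnajc3* and *Hamp* are outside this rule and were named after their values were seen. Some genes that the rule names are not reported here.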

Additional observations from a re-analysis of the deposited data

How the results depend on the processing

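With 2 distinct libraries per group, differences smaller than the intervals given could not be shown. For the 10 genes, 6, 2 and 5 passed in the comparisons of endotoxemic with control, LGK974 with endotoxemic and LGK974 with control. Leaving out 1 library gave 5 to 8, 0 to 4 and 4 to 7 (in the second, 0 without endotoxemic library 1 or 2, 1 without either control library and 4 without LGK974 library 2), and the other alternatives 6 to 8, 2 and 5 to 6. The replicate numbers of the libraries showed no pairing (correlation of deviations 0.14, 0.061 and −0.007), and with the replicate number as a block 7, 2 and 5 genes passed, and 5485, 685 and 4307 of all rows. Of all rows, 5513, 714 and 4328 passed, and 3432 to 6719, 49 to 2242 and 2372 to 5369 when a library was left out, the lowest being without control library 1, endotoxemic library 2 and control library 1. The second count was 1705 without a filter, 1227 by DESeq2 and 3259 with the identical libraries kept apart. The changes of sign were in values that did not pass as reported. *Pdia4* against control became 0.01 in the endotoxemic group without a filter and 0.01 with upper-quartile factors, and *Edem1* in the LGK974 group 0.02 and 0.07. When a library was left out, the range in the first comparison was −0.15 to 0.14 for *Pdia4* and −0.04 to 0.16 for *Edem1*. In the second it was −0.07 to 0.45 for *Atf4*, −0.18 to 0.67 for *Xbp1*, −1.24 to 0.09 for *Trib3*, −0.49 to 0.14 for *Sdf2l1*, −0.94 to 0.03 for *Pdia4*, −0.39 to 0.04 for *Calr* and −0.16 to 0.02 for *Edem1*. In the third it was −0.07 to 0.17 for *Creb3l3* and −0.07 to 0.03 for *Edem1*. The cause of these shifts was not tested. Over all alternatives the endotoxemic group had 5 to 9 higher sensors and factors, 11 to 19 higher PERK and ATF4 targets, 12 to 18 higher chaperones, 1 to 9 higher and 3 to 8 lower ERAD genes, 11 to 33 higher translocation and export genes and 5 to 6 lower CREBH targets, and in the LGK974 group against the endotoxemic group 0 to 10 PERK and ATF4 targets were lower, 0 to 3 chaperones higher and 0 to 7 lower, 0 to 3 ERAD genes higher and 0 to 4 lower, 0 to 1 translocation and export genes higher and 0 to 4 lower, and 0 to 7 CREBH targets higher and 0 to 2 lower. The median of the CREBH targets there was 0.27 to 1.06 and that of the sensors and factors −0.16 to 0.23. In the endotoxemic group against control, the median of the PERK and ATF4 targets was 0.69 to 1.26, the lowest with at least 10 counts in every library (21 genes tested), and that of the ERAD genes −0.03 to 0.18. In the LGK974 group against control, 3 to 9 sensors and factors, 6 to 15 PERK and ATF4 targets, 1 to 4 genes of the eIF2α list, 6 to 18 chaperones, 0 to 8 ERAD genes and 8 to 23 translocation and export genes were higher, and 0 to 7 ERAD genes lower.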
